A study of Mus musculus with 9 samples.

Results

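Proteasome subunit and assembly genes were examined in the livers of chow-fed mice and of mice fed a high-sucrose diet (HSD). Members were all gene symbols made of Psm, a letter from a to g and a number, which gave 48 of the 19329 symbols in the count table. Of these, 46 were among the 12091 genes that had enough counts to be tested. The 2 members left out were *Psma8*, a core subunit typical of testis, and *Psmb11*, the thymus-specific catalytic subunit. The mice were C57BL/6J, an inbred laboratory strain, and all were given standard chow until the age of 8 weeks. From then, 5 mice stayed on chow and 4 received HSD for 3 weeks, and liver RNA was sequenced at 11 weeks from 1 library per mouse. The strain was the same in both diets, no genetic change or drug is named, and sex is not stated.

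The proteasome is the protease complex that degrades most ubiquitin-tagged proteins in the cell. Its barrel-shaped 20S core is a stack of rings of alpha and beta subunits, and 3 of the beta subunits carry the cutting sites. The 19S regulatory particle caps the core, where its ATPases unfold substrates and its other subunits bind and remove ubiquitin. In immune cells, and in other cells exposed to interferon, alternative catalytic subunits are built into new cores to make the immunoproteasome, which favours peptides for display on MHC class I. Hepatocytes rely on the proteasome for rapid turnover of metabolic enzymes and of apolipoprotein B.

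Libraries held 12769668 to 25913869 estimated counts on chow and 14040723 to 24825322 on HSD. Of the whole-number values above 0 in the count table, 99.1% were even (99.0% for the members), so a printed count may stand for fewer read pairs, and tests were repeated with the counts halved. Chow 1 stood apart in acute phase genes, whose summed TPM over 9 genes ranged from 5530 to 82600 over the chow livers and from 5680 to 6620 over the HSD livers. Averaged over log2 CPM, Kupffer cell and macrophage markers were lowest in HSD 4 and highest in chow 1. Library labels fell into 2 series, of which the first held chow 1 to 4 and HSD 1 and 2. The 8 hepatocyte markers were abundant in every liver, with a summed TPM of 53000 to 104000 on chow and 87000 to 111000 on HSD. None of these 8 markers passed the edgeR test (1 had an unadjusted p under 0.05, beside 23.7% of all genes, and DESeq2 called 0). TPM is scaled to transcript length and to a fixed total per library, and was used to compare genes with each other. Diets were compared on counts, shown as TMM-scaled CPM, which divides each count by a library size rescaled by TMM.

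Differences between the diets were small for nearly all proteasome genes. By edgeR's quasi-likelihood test with Benjamini-Hochberg adjustment over all genes, 1 of 46 members was lower on HSD at an adjusted p under 0.05, against 6.67% of all genes tested in either direction and 3.23% lower. That member was *Psmg2*, which encodes an assembly chaperone of the core. No member was higher by edgeR, whereas 3.44% of all genes were. At an unadjusted p under 0.05, 8 members differed (17.4%), which were 3 higher and 5 lower, beside 23.7% of all genes. DESeq2 called 4 members, *Psmd1* as higher and *Psmb9*, *Psme2* and *Psmg2* as lower, or 8.70% against 10.6% of the genes it tested. 1 member each was called by limma voom (*Psmg2*, lower, against 6.77% of all genes), by limma on log2(TPM + 1) (*Psmd1*, higher, against 5.46%) and by edgeR with library totals (*Psmd1*, higher, against 6.81%). Without chow 1, edgeR called the same single member, *Psmg2* (adjusted p = 0.0493), and with the livers of the first label series alone (4 chow, 2 HSD) it called 0. In that series the log2 fold change was -0.61 for *Psmg2*, -0.92 for *Psmb9*, -0.45 for *Psmb10*, -0.37 for *Psme2* and 0.19 for *Psmd1*. The signs were the same over all livers, which include these ones, so the shared direction is not an independent check.

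The estimates for single members were narrow. The 95% interval of the log2 fold change lay within -0.5 to 0.5 for 41 of 46 members (89.1%), compared with 46.1% of all genes. The 5 others were *Psmb9*, *Psmb10*, *Psmg2*, *Psmg4* and *Psme2*. The SD of log2 CPM within a diet had a median of 0.12 over the members, with a range of 0.07 to 0.37, and of 0.22 over all genes tested. Members were also more abundant, with a median of mean TPM on chow of 55.6, against 6.9 over all genes tested. The part of abundance in the narrower intervals and smaller SD was not tested. When changes were planted in simulated counts of these libraries (11977 genes), edgeR found 27 of 97 planted at 0.5 on the log2 scale and 80 of 97 planted at 1. The changed genes were drawn from all genes tested, with the dispersion trend over all genes, so these rates are not those of the members. The median log2 fold change of the members was -0.06 and that of all genes 0.00.

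**Figure D1:**
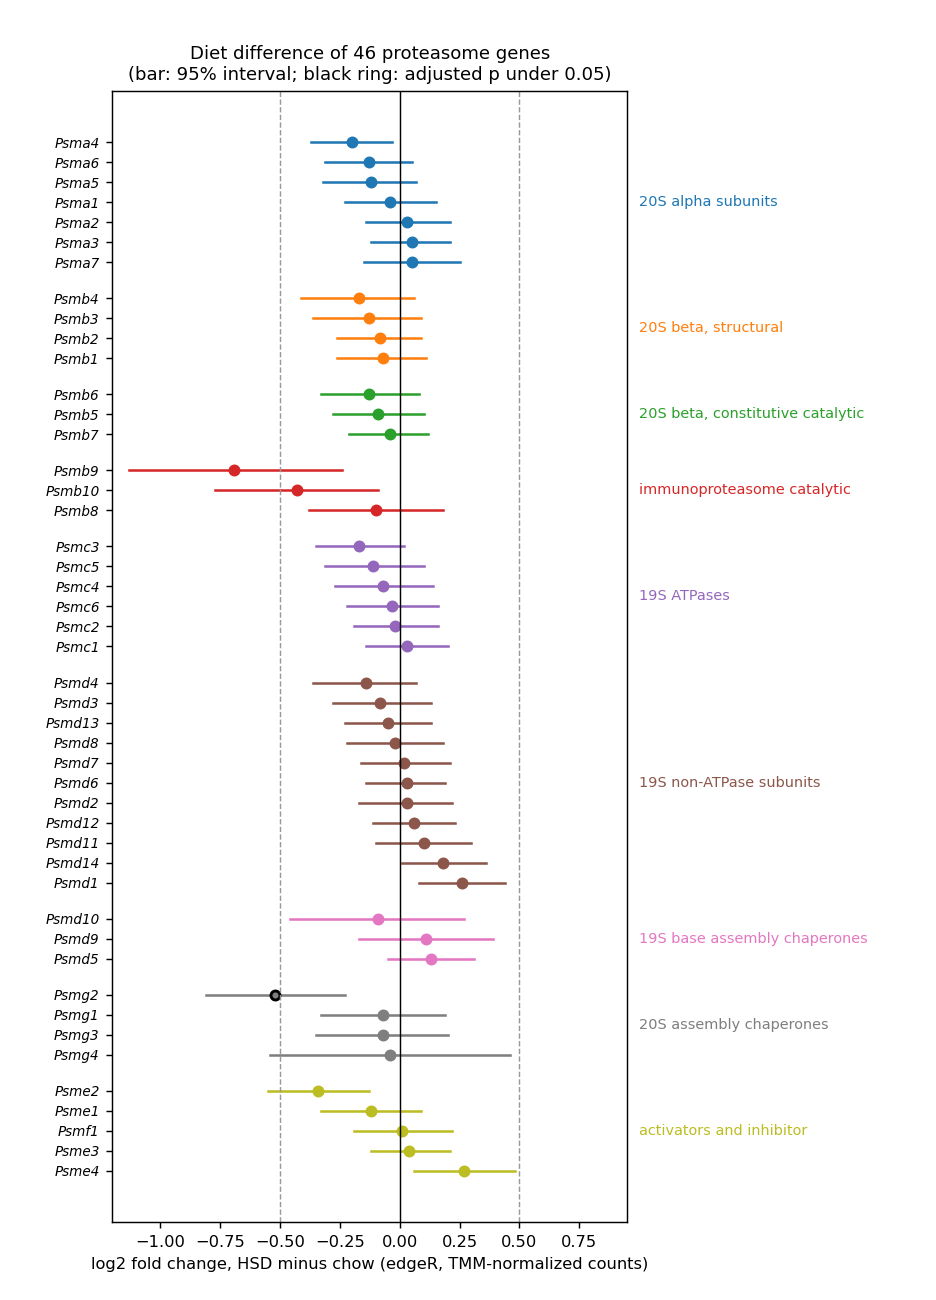
Log2 fold change (HSD minus chow, x axis) of the 46 tested proteasome genes by edgeR, grouped by role, with 95% intervals as bars and dashed lines at -0.5 and 0.5. The interval lies inside the dashed lines for 41 genes, and *Psmg2* at -0.52 is the single gene with a black ring (adjusted p under 0.05), while *Psmb9* at -0.69 lies lowest without passing the test.

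The sign of small fold changes depended on the scale. On log2(TPM + 1), the median was 0.10 over the members and 0.14 over the 10542 genes whose TPM averaged 1 or more, and without that limit the members' median was 0.10 and that of 16487 genes 0.06, so the order of the medians depended on the filter. Of the members, 30 (65.2%) lay below 0 on the TMM scale, where 50.4% of all genes did. On the TPM scale 6 members did, where the median of all genes also lay above 0 and their share below 0 was not counted. Summed over members, TPM was 2859, 3132, 3010, 3013 and 3126 in chow 1 to 5, and 3200, 3289, 3244 and 3262 in HSD 1 to 4. The diets did not overlap in this sum, at 3028 ± 111 (SD, n = 5) on chow and 3249 ± 37.4 (SD, n = 4) on HSD, and HSD livers were the higher ones. How often TPM summed over other genes separates the diets was not counted. The sum over members made up 0.308% to 0.336% of all listed TPM on chow and 0.341% to 0.349% on HSD. Fold changes below are on the TMM-scaled counts unless TPM is named.

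Levels per length differed by role in the complex. *Psmb6*, the constitutive subunit with caspase-like activity, was the most abundant member at a TPM of 187 ± 9.84 on chow and 195 ± 2.65 on HSD. The median of the mean TPM on chow was 96.3 over the 8 alpha subunits, 124 over the 4 structural beta subunits, and mean TPM ran from 105 to 187 over the 3 constitutive catalytic ones. The median was 67.9 over the 6 ATPases and 55.2 over the 11 other 19S subunits. Assembly chaperones were present at lower levels, with a median of 15.3 over the 4 chaperones of the core and 18.3 over the 3 of the 19S base. Among core subunits found in all tissues, *Psma2* had the lowest TPM, with a mean of 34.4 on chow (range 32.3 to 36.8) and of 38.0 on HSD (range 36.0 to 39.7). *Psma8* was near the limit of detection at 2 to 16 estimated counts per library, and *Psmb11* had 0 to 7.01.

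**Figure D2:**
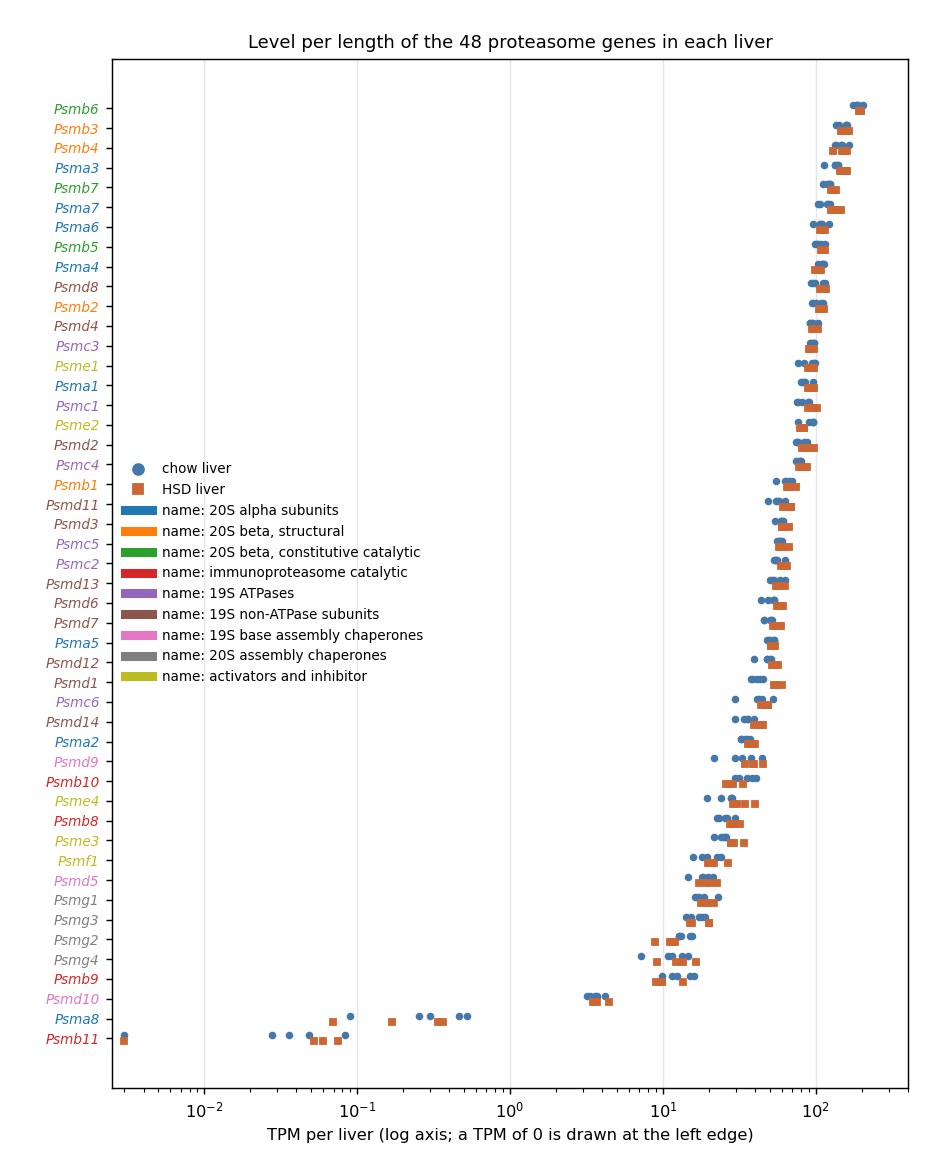
TPM (log axis) of the 48 proteasome genes in each of 5 chow livers (circles) and 4 HSD livers (squares), in order of their mean over all livers, with gene names coloured by role. *Psmb6* leads at 187 on chow and 195 on HSD, most assembly chaperones and *Psmb9* lie at the lower end, and *Psma8* and *Psmb11* lie far below the rest.

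Alpha subunits, which form the outer rings and the gate of the core, showed no called difference. Of 7 tested, none passed edgeR's test, 1 had an unadjusted p under 0.05 (beside 23.7% of all genes) and DESeq2 called 0. Their log2 fold changes ranged from -0.20 to 0.05 with a median of -0.04, and the intervals together spanned -0.37 to 0.25. *Psma4* had the largest difference, with 89.2, 88.9, 83.1, 78.1 and 80.2 CPM in chow 1 to 5 and 70.6, 71.0, 73.9 and 76.2 CPM in HSD 1 to 4. All HSD livers lay below all chow livers for this gene. Its log2 fold change was -0.20 (SE 0.08, 95% interval -0.37 to -0.03, adjusted p = 0.139 from edgeR). On log2(TPM + 1) it was -0.08, and 21.8% of the 31-base sequences of *Psma4* also occur in other GENCODE genes, mainly Gm6542. Reads can be split between such genes, but whether they were is not known. *Psma3*, the most abundant alpha subunit, had a TPM of 132 ± 10.7 on chow and 152 ± 8.28 on HSD and a log2 fold change of 0.05 (SE 0.08, interval -0.12 to 0.21).

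The 4 structural beta subunits, which have no cutting site, all had estimates below 0, from -0.17 to -0.07, and none passed the test (0 with an unadjusted p under 0.05, and 0 by DESeq2). *Psmb4* had the largest, at -0.17 (SE 0.11, interval -0.41 to 0.06, adjusted p = 0.359 from edgeR). *Psmb3* was the most abundant of them, at a TPM of 150 ± 10.7 on chow and 156 ± 6.83 on HSD. On log2(TPM + 1), *Psmb4* was at 0.01 and *Psmb3* at 0.05, so no direction is given for them.

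The constitutive catalytic subunits also had estimates near 0, with 0 of 3 passing edgeR's test, 0 at an unadjusted p under 0.05 and 0 by DESeq2. *Psmb5*, with chymotrypsin-like activity, had 66.1, 60.8, 60.3, 51.6 and 64.6 CPM on chow and 54.2, 59.1, 56.2 and 58.2 CPM on HSD. *Psmb6* had 103, 95.9, 91.1, 76.3 and 88.1 CPM on chow and 80.6, 86.2, 81.4 and 84.4 CPM on HSD. *Psmb7*, with trypsin-like activity, had 101.9, 94.1, 98.8, 90.0 and 96.9 CPM on chow and 92.3, 99.0, 88.5 and 94.4 CPM on HSD. For each of these genes the HSD values lay inside the chow range, except HSD 3 for *Psmb7*, just below it, and chow 4 was the lowest chow liver. The log2 fold changes were -0.09 (interval -0.28 to 0.10) for *Psmb5*, -0.13 (interval -0.33 to 0.08) for *Psmb6* and -0.04 (interval -0.21 to 0.12) for *Psmb7*. On log2(TPM + 1) these estimates turned to 0.09, 0.06 and 0.13. *Psmb5* shares 71.7% of its 31-base sequences with other GENCODE genes, mainly the predicted gene Gm3375. The transcripts given to kallisto are not stated, so its counts may be uncertain, and whether reads were split is not known.

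The 3 immunoproteasome subunits were less abundant than the constitutive catalytic subunits, and *Psmb9* had the largest spread within a diet of all tested members (SD of log2 CPM 0.37). By edgeR none of the 3 tested passed the adjusted threshold, and 2 had an unadjusted p under 0.05, beside 23.7% of all genes. DESeq2 called *Psmb9*, beside 10.6% of the genes it tested in either direction. *Psmb9*, which replaces *Psmb6*, had 14.7, 11.9, 8.95, 14.5 and 10.8 CPM in chow 1 to 5 and 4.72, 8.54, 9.56 and 7.61 CPM in HSD 1 to 4. HSD 1, 2 and 4 lay below all chow livers, while HSD 3 lay above the lowest chow liver, chow 3. Its log2 fold change was -0.69 (SE 0.21, interval -1.13 to -0.24), with adjusted p = 0.0687 from edgeR and 0.0240 from DESeq2. It was counted at only 100 to 386 estimated counts per library, and its log2(TPM + 1) difference was smaller, at -0.27. The ratio of its counts to its TPM, set against the median gene, differed by -0.25 on the log2 scale (HSD minus chow, SD within a diet 0.20). *Psmb9* shares 4.8% of its 31-base sequences with its neighbour *Tap1*. The part of either in its fold change was not tested. Without chow 3, *Psmb9* was just past edgeR's threshold at -0.78.

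*Psmb10* (chr8:105935735-105938444, GRCm38), which replaces *Psmb7*, had 37.0, 23.9, 22.3, 22.4 and 22.8 CPM on chow and 18.9, 19.6, 21.4 and 16.4 CPM on HSD. All HSD livers lay below all chow livers, and chow 1 lay far above the rest. The log2 fold change was -0.43 (SE 0.15, interval -0.77 to -0.09, adjusted p = 0.119 from edgeR). Without chow 1 it was -0.27 (SE 0.10, adjusted p = 0.117 from edgeR), and on log2(TPM + 1) with all livers it was also -0.27. *Psmb8*, which replaces *Psmb5*, had 29.49, 20.55, 18.86, 21.81 and 19.96 CPM on chow and 19.24, 21.21, 22.66 and 19.27 CPM on HSD. Here the diets overlapped and chow 1 was highest. The log2 fold change was -0.10 (SE 0.13, interval -0.38 to 0.18, adjusted p = 0.671 from edgeR). Without chow 1 the estimate for *Psmb8* was 0.01, and on log2(TPM + 1) it was 0.19.

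Each immunoproteasome subunit was set against the constitutive subunit whose place it takes, as a ratio of TPM within a liver. *Psmb8* stood at 29.3%, 21.7%, 22.0%, 26.5% and 22.2% of *Psmb5* in chow 1 to 5 and at 25.7%, 26.3%, 28.4% and 24.1% in HSD 1 to 4. *Psmb9* stood at 8.09%, 6.08%, 5.35%, 9.16% and 6.13% of *Psmb6* on chow and at 4.68%, 5.01%, 7.08% and 4.97% on HSD. *Psmb10* stood at 36.7%, 32.1%, 26.2%, 24.2% and 28.4% of *Psmb7* on chow and at 20.8%, 24.7%, 22.9% and 19.7% on HSD. The diets overlapped in all 3 ratios, least for *Psmb10*. The log2 ratio was 0.11 higher on HSD for *Psmb8* (exact permutation test, 2-sided, p = 0.365). For *Psmb9* it differed by -0.35 (exact p = 0.159) and for *Psmb10* by -0.41 (exact p = 0.0317), and after Benjamini-Hochberg adjustment over the 3 pairs these became 0.365, 0.238 and 0.0952. The smallest p that 5 against 4 livers allow is 0.0159. With the first label series alone the log2 ratios differed by 0.08, -0.53 and -0.38. Together, immunoproteasome subunits made up 13.6% to 17.7% of catalytic TPM on chow and 12.5% to 14.7% on HSD.

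**Figure D3:**
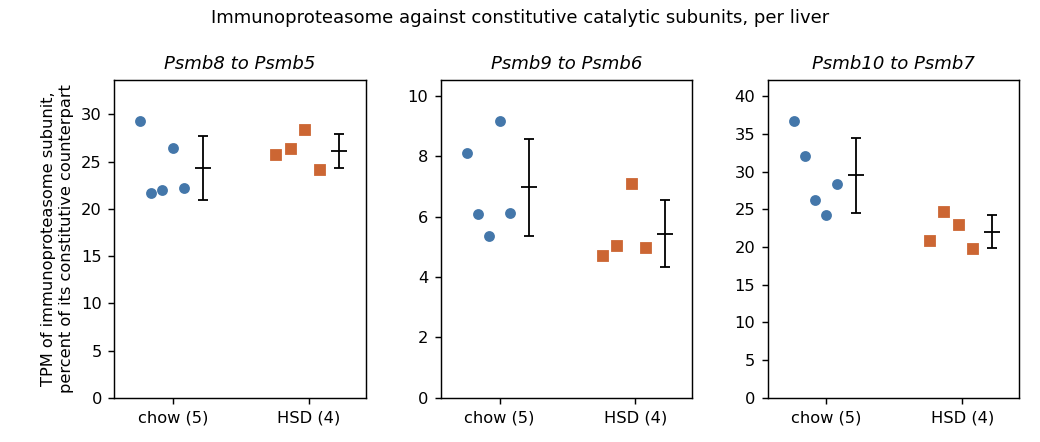
TPM of *Psmb8*, *Psmb9* and *Psmb10* as a percent of *Psmb5*, *Psmb6* and *Psmb7* in each liver (circles chow, squares HSD; bars are mean and SD). The ratio of *Psmb10* to *Psmb7* runs from 24.2% to 36.7% on chow and from 19.7% to 24.7% on HSD, while the ratios of *Psmb8* and *Psmb9* overlap more.

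Immune cells are rich in immunoproteasomes, and their markers are given here beside its genes. In bulk liver, fewer cells of a type and less RNA per cell cannot be told apart. All 11 Kupffer cell and macrophage markers had log2 fold changes below 0, with a median of -0.57 (-0.35 on log2(TPM + 1)), and their summed TPM was 222 to 403 on chow and 138 to 288 on HSD. None passed edgeR's test, 6 had an unadjusted p under 0.05 (beside 23.7% of all genes) and DESeq2 called 0. Of 12 lymphocyte markers 4 were tested and 0 called by edgeR (1 with an unadjusted p under 0.05, 0 by DESeq2), with a median of -0.27, a summed TPM of 3.09 to 12.0 on chow and 5.11 to 7.68 on HSD, and *Ncr1* at 0 in all livers. Of 6 neutrophil markers 1 was tested and not called, with a summed TPM of 1.96 to 12.5 on chow and 0.604 to 2.40 on HSD, and *Mpo* at 0 in all livers. The part of these cells in the values of *Psmb9* and *Psmb10* was not tested. The mean of the centred log2 CPM of the immunoproteasome genes was highest in chow 1, at 0.60, where the Kupffer cell list was also highest, at 0.96. It was lowest in HSD 1, at -0.46, where the Kupffer cell list was at 0.01. HSD 4 had the lowest Kupffer cell value, -1.05, and without HSD 4 the log2 fold change of *Psmb9* was -0.69 and that of *Psmb10* -0.36.

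Genes for MHC class I peptide supply, which acts downstream of the immunoproteasome, also had estimates mostly below 0. Of 12 tested, 11 had log2 fold changes below 0, with a median of -0.29. On log2(TPM + 1), 8 lay below 0 and the median was -0.08. By edgeR none passed the adjusted threshold and 5 had an unadjusted p under 0.05, beside 23.7% of all genes. DESeq2 called *Tap1* and *B2m* as lower, beside 10.6% of the genes it tested in either direction. *Tap1*, a subunit of the peptide transporter of the endoplasmic reticulum, is named here after its values were seen, as the neighbour of *Psmb9*. It had 34.41, 27.85, 29.26, 30.02 and 21.21 CPM on chow and 19.10, 21.71, 21.84 and 22.84 CPM on HSD, so that chow 5 lay within the HSD range. The log2 fold change of *Tap1* was -0.42 (SE 0.12, interval -0.69 to -0.15, adjusted p = 0.0640 from edgeR), and -0.10 on log2(TPM + 1) (adjusted p = 0.562 from limma).

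**Figure D4:**
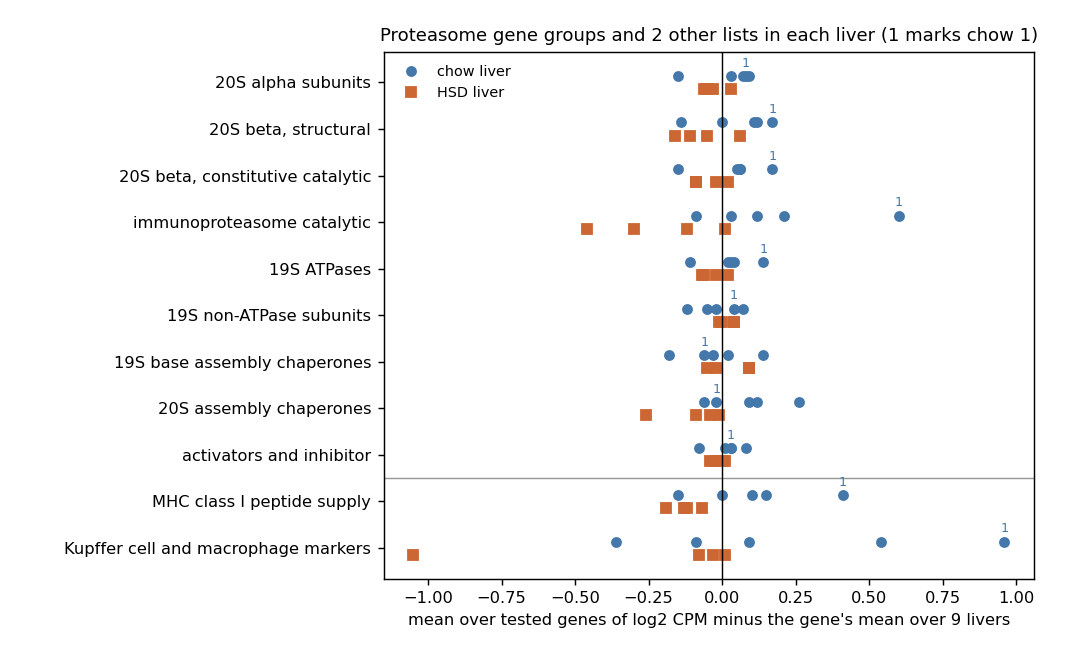
Mean over the tested genes of a group of log2 CPM minus each gene's mean over 9 livers (x axis), for the 9 proteasome gene groups and, below the line, for MHC class I and Kupffer cell lists, in each chow liver (circles, chow 1 numbered) and HSD liver (squares). Most proteasome groups stay close to 0, the immunoproteasome runs from -0.46 to 0.60 and the Kupffer cell list from -1.05 to 0.96.

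*Psmb9* and *Tap1* lie head to head, with RefSeq starts 226 bases apart on chromosome 17 of GRCm38 and transcription running away from each other. *Psmb8* follows *Tap1* at chr17:34197721-34201454. *Psmb9* spans chr17:34181987-34187764 on the minus strand and *Tap1* chr17:34187553-34197225 on the plus strand, in GENCODE. The 30 bases directly before the RefSeq start of *Psmb9* (chr17:34187331-34187360, minus strand), which a longer annotated transcript covers, are shown beside the stretch before *Psmb5* (chr14:54618023-54618245, minus strand, 223 bases). As the stretches differ in length, their marked letters do not compare an immunoproteasome promoter with a constitutive one. Capitals mark a CCAAT box in reverse, ATTGG, in the former and a match to TGACNNNGC, the core of the antioxidant response element, in the latter.
Psmb9: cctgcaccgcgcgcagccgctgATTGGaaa
Psmb5: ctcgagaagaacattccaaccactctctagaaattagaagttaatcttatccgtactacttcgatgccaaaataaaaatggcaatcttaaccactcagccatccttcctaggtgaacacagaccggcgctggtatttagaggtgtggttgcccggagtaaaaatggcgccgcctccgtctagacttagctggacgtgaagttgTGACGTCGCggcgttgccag
Promoter windows of RefSeq, from 250 bases before to 50 after the start, were at hand for 40 members (43 windows) and were searched on both strands. TGACNNNGC was in 6 member windows (14.0%) against 12.4% of all 32851 windows, among them those of *Psmb5*, *Psmb6* and *Psme4*. CCAAT was in 14 (32.6%) against 37.4%. The core of the interferon-stimulated response element, searched as GAAA, any 2 bases and GAAA, was in 5 (11.6%) against 3.44%. These were *Psmb3*, *Psmd4*, *Psmd9*, *Psme1* and *Psmg4*, and not *Psmb8*, *Psmb9* or *Psme2*. TTCNNNGAA, the gamma-activated site, was in 3 (6.98%) against 8.3%, which were *Psmb8*, *Psmd2* and *Psmg1*. A match is a description of the letters only.

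Genes of the 19S regulatory particle had estimates about as small as those of the core. Of its 6 ATPases, the ring that unfolds substrates, none passed edgeR's test, 0 had an unadjusted p under 0.05 and DESeq2 called 0. Their log2 fold changes ran from -0.17 to 0.03, and their intervals together from -0.35 to 0.20. *Psmc3* had the highest mean TPM over all livers, at 94.8 ± 2.12 on chow and 92.6 ± 3.43 on HSD (*Psmc1* was at 95.5 ± 5.01 on HSD), and the largest estimate, at -0.17 (SE 0.08, interval -0.35 to 0.02, adjusted p = 0.258 from edgeR). The 11 non-ATPase subunits had log2 fold changes from -0.14 to 0.26 with a median of 0.03. None of them passed edgeR's test, and 2 had an unadjusted p under 0.05, beside 23.7% of all genes. DESeq2 called *Psmd1* among them, beside 10.6% of the genes it tested in either direction. *Psmd8*, a lid subunit and the most abundant of them, had a TPM of 103 ± 9.54 on chow and 112 ± 4.15 on HSD and a log2 fold change of -0.02 (SE 0.09, interval -0.22 to 0.18).

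*Psmd1* (chr1:86064387-86139151, GRCm38), the large scaffold subunit of the base, had 110.5, 101.5, 110.0, 101.0 and 91.9 CPM in chow 1 to 5 and 119.97, 121.8, 119.4 and 132.4 CPM in HSD 1 to 4. All HSD livers lay above all chow livers. Its log2 fold change was 0.26 (SE 0.08, interval 0.08 to 0.44), with adjusted p = 0.0837 from edgeR and 0.0259 from DESeq2. On log2(TPM + 1) it was 0.43 (adjusted p = 0.0215 from limma), from a TPM of 41.0 ± 3.02 on chow and 55.5 ± 3.02 on HSD, so whether *Psmd1* passed depended on the tool and the scaling (TMM with edgeR did not call it). *Psmd14*, the deubiquitinase that removes ubiquitin chains at the entry of the core, had 34.9, 40.4, 43.1, 36.6 and 37.4 CPM on chow and 45.3, 41.0, 44.8 and 44.0 CPM on HSD. The diets overlapped for *Psmd14*, and its log2 fold change was 0.18 (SE 0.08, interval 0.01 to 0.36, adjusted p = 0.197 from edgeR). *Psmd14* is named here after its values were seen, as are *Psme4* and *Psma2*.

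Chaperones that assemble the base of the 19S particle showed no called difference (0 of 3 by edgeR, 0 at an unadjusted p under 0.05, 0 by DESeq2). *Psmd5*, which binds an ATPase during assembly, had a log2 fold change of 0.13 (SE 0.08, interval -0.05 to 0.31, adjusted p = 0.376 from edgeR). *Psmd9* had the highest level of the group, a TPM of 33.3 ± 8.56 on chow and 39.4 ± 4.28 on HSD, and a log2 fold change of 0.11 (SE 0.13, interval -0.17 to 0.39). *Psmd10*, which encodes gankyrin, was the least abundant tested member at a TPM of 3.60 ± 0.388 on chow and 3.79 ± 0.434 on HSD.

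Chaperones of the 20S core held the single called member. *Psmg2*, which pairs with the product of *Psmg1* to guide assembly of the alpha ring, had 10.5, 10.9, 9.62, 8.32 and 10.4 CPM in chow 1 to 5 and 5.56, 7.27, 7.51 and 7.38 CPM in HSD 1 to 4. All HSD livers lay below all chow livers, and HSD 1 was the lowest. The log2 fold change was -0.52 (SE 0.13, interval -0.81 to -0.23), with adjusted p = 0.0377 from edgeR and 0.0136 from DESeq2. The call was lost when any 1 of 7 livers was left out (chow 2, 3 or 5 or any HSD liver, adjusted p from edgeR 0.0614 to 0.111), and on log2(TPM + 1) the difference was -0.32 (adjusted p = 0.109 from limma). It was also lost with a clock covariate, where the log2 fold change of *Psmg2* was -0.5 (adjusted p = 0.0566 from edgeR). Its partner *Psmg1* had 11.77, 15.65, 11.64, 11.62 and 11.07 CPM on chow and 11.32, 11.20, 11.88 and 12.77 CPM on HSD. The diets overlapped for *Psmg1*, whose log2 fold change was -0.07 (SE 0.12, interval -0.33 to 0.19, adjusted p = 0.783 from edgeR). *Psmg3* and *Psmg4*, which form the other chaperone pair, were at -0.07 and -0.04, the latter with an interval of -0.54 to 0.46 at only 2.07 to 3.85 CPM.

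Activators that cap the core in place of the 19S particle had estimates on both sides of 0. Of the 5 genes of activators and inhibitor, none passed edgeR's test, and 2 had an unadjusted p under 0.05, beside 23.7% of all genes. DESeq2 called *Psme2* among them, beside 10.6% of the genes it tested in either direction. *Psme2* (chr14:55587441-55591113, GRCm38), an interferon-inducible subunit of the ring activator that works with the immunoproteasome, had 64.3, 59.6, 57.8, 53.9 and 46.5 CPM on chow and 44.1, 46.9, 43.0 and 44.0 CPM on HSD. HSD livers lay below the chow livers, except that chow 5 fell just under HSD 2. The log2 fold change was -0.34 (SE 0.10, interval -0.55 to -0.13), with adjusted p = 0.0533 from edgeR and 0.0178 from DESeq2, and without chow 5 it passed edgeR's test at -0.41 (adjusted p = 0.0232). The difference of *Psme2* on log2(TPM + 1) was -0.15 (adjusted p = 0.343 from limma). *Psme2* shares 33.5% of its 31-base sequences with *Psme2b*, a near copy. Its ring partner *Psme1*, the activator gene with the highest mean TPM over all livers, had 77.1, 68.9, 58.1, 65.2 and 56.9 CPM on chow and 57.9, 61.6, 62.8 and 57.9 CPM on HSD. The diets overlapped for *Psme1*, with a log2 fold change of -0.12 (SE 0.10, interval -0.33 to 0.09, adjusted p = 0.499 from edgeR).

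*Psme4*, a large single-chain activator of the nucleus, had an estimate in the other direction, with 116.8, 124.2, 141.8, 133.6 and 135.2 CPM on chow and 180.2, 141.9, 144.4 and 162.9 CPM on HSD. The diets did not overlap, but the highest chow liver, chow 3, and the lowest HSD liver, HSD 2, lay side by side. Its log2 fold change was 0.27 (SE 0.10, interval 0.06 to 0.48, adjusted p = 0.116 from edgeR). *Psme3*, the nuclear ring activator, was at 0.04 (interval -0.12 to 0.21), and *Psmf1*, an inhibitor of the core in the test tube, at 0.01 (interval -0.19 to 0.22). Over all 46 members, the CPM of the diets did not overlap for *Psmd1* and *Psme4*, with HSD higher, and for *Psma4*, *Psmb10* and *Psmg2*, with HSD lower. That is 10.9% of members, beside 11.3% of all genes tested (5.84% with HSD higher and 5.51% with HSD lower).

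**Figure D5:**
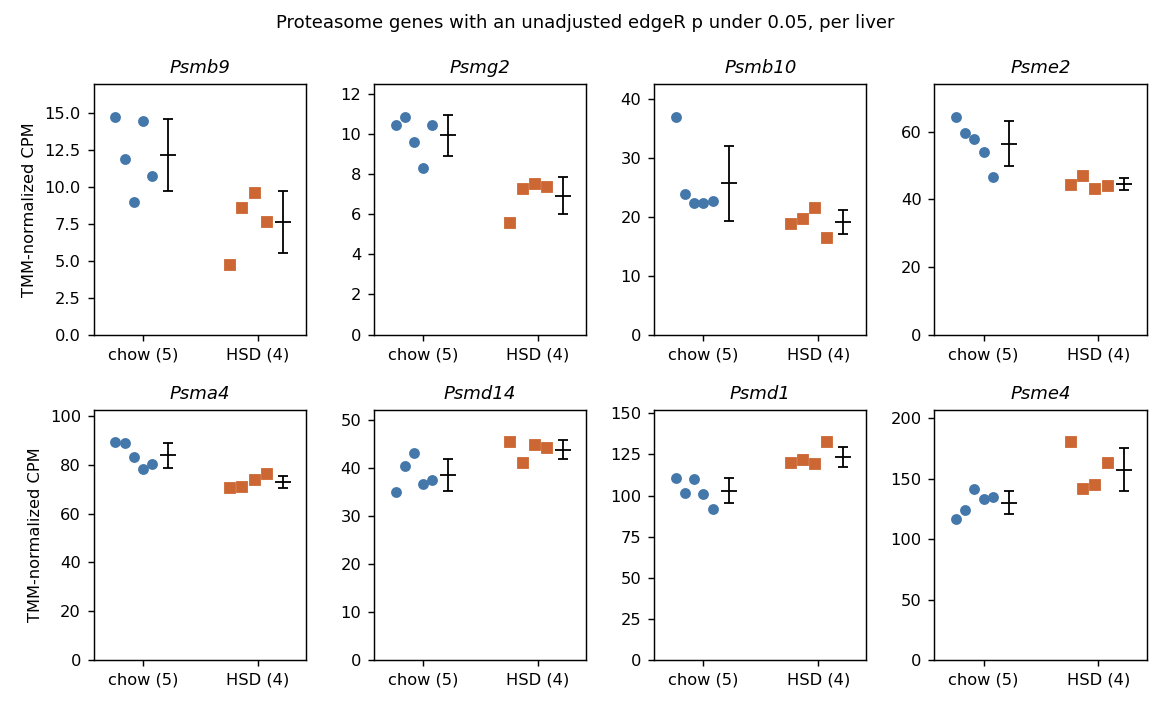
TMM-normalized CPM (y axis, from 0) of the 8 proteasome genes with an unadjusted edgeR p under 0.05 in each liver (circles chow, squares HSD; bars are mean and SD). The diets do not overlap for *Psmg2*, *Psmb10*, *Psma4*, *Psmd1* and *Psme4*, chow 1 stands out for *Psmb10* at 37.0 CPM, and of the 8 *Psmg2* alone passed the adjusted threshold.

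Genes that work with the proteasome showed no called difference by edgeR either. Of 51 genes on lists of partners, transcriptional control, ubiquitin supply and MHC class I, 46 were tested. By edgeR 0 were called, against 6.67% of all genes, and 12 had an unadjusted p under 0.05, beside 23.7% of all genes. DESeq2 called 4 as lower, which were *Zfand2b*, *Syvn1*, *Tap1* and *B2m*, beside 10.6% of the genes it tested in either direction. Median log2 fold changes were 0.09 over 18 partners, 0.08 over 7 control genes and 0.09 over 9 ubiquitin genes, and 0.22, 0.21 and 0.19 on log2(TPM + 1). *Nfe2l1*, the factor that raises proteasome gene transcription when degradation is impaired, averaged 110 ± 13.1 CPM (n = 5) in chow livers and 116 ± 14.0 CPM (n = 4) in HSD livers, with a log2 fold change of 0.08 (SE 0.11, adjusted p = 0.720 from edgeR). *Ddi2*, the protease that activates the product of *Nfe2l1*, was at 250 ± 18.9 CPM and 236 ± 23.1 CPM (-0.08, interval -0.30 to 0.13). *Pomp*, the maturation factor of the core, was at 65.3 ± 3.00 CPM and 60.8 ± 6.54 CPM (-0.10, interval -0.29 to 0.09). *Adrm1*, a ubiquitin receptor of the 19S particle whose symbol has another form, was at 77.3 ± 3.72 CPM and 82.4 ± 5.27 CPM (0.09, interval -0.08 to 0.27). In CPM all 4 overlapped between the diets. In TPM *Adrm1* did not, at 64.6 to 69.9 on chow and 78.0 to 85.5 on HSD, and its log2(TPM + 1) difference was 0.27 (adjusted p = 0.063 from limma). On that scale the median of 10542 genes was 0.14. The share of all genes without overlap in TPM was not counted.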

How the data were processed

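Liver RNA of 9 mice (5 chow, 4 HSD) was analysed, 1 library per mouse. The authors prepared poly-A libraries with pairs of 51-base reads and ran kallisto (version not stated) on GRCm38. The deposited tables hold unscaled estimated counts and, per library, TPM values for each gene symbol. Whole values among these counts are mostly even, for a reason not stated. Reads shared by several transcripts are divided by kallisto, so near-identical genes can exchange counts. The step from transcripts to symbols is not described.

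Estimated counts were rounded, passed through filterByExpr (10 counts, 15 in total) and TMM, and compared over 12091 genes with edgeR 4.0.16 in R 4.3.3 (quasi-likelihood, 7 residual degrees of freedom, biological coefficient of variation 0.187), checked on simulated data. DESeq2 1.42.0, limma 3.58.1 (voom, and log2(TPM + 1) or log2(TPM + 0.1) for genes averaging a TPM of 1) and other scalings, filters and covariates were alternatives. log2 CPM used a prior count of 2. Ratios of TPM had exact permutation tests (scipy 1.17.1). Positions are from GENCODE for GRCm38 and promoter windows from RefSeq (GRCm38.p6).

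Members and lists were chosen with earlier results of these data known. Genes were named if past the test, if catalytic, or if they had the largest fold change or highest TPM of their group, along with *Nfe2l1*, *Ddi2*, *Pomp* and *Adrm1*. No column of another sample was present (0 columns). Reads were not used. The human cohorts were not analysed here.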

Additional observations from a re-analysis of the deposited data

Results flagged for a closer look

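In 6 of 92 groups of livers (46 genes in 2 diets, 6.52%), 1 liver lay apart from the others of its diet by Dixon's test, which flags about 1 in 20 groups by chance. *Psmb10* in chow 1 lay 0.69 (log2 CPM) above the average of chow 2 to 5, at 37.0 CPM against 22.3 to 23.9. Chow 1 was also the liver with high acute phase genes, and the part of that difference was not tested. *Psmg1* in chow 2 lay 0.44 above (15.6 CPM against 11.1 to 11.8) and *Psmf1* in chow 2 lay 0.28 above (35.4 CPM against 28.1 to 29.8). *Psma7* in chow 4 was at -0.28 from the others (57.6 CPM against 67.7 to 71.6). *Psme3* in HSD 1 lay 0.17 above (53.6 CPM against 47.3 to 48.1). *Psmg2* in HSD 1 was at -0.40 (5.56 CPM against 7.27 to 7.51), and without HSD 1 the log2 fold change of *Psmg2* was -0.43 (adjusted p = 0.111 from edgeR).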

How the results depend on the processing

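Over 24 other settings, counts of called genes moved more than the estimates for members. The 416 genes higher on HSD became 634 with DESeq2, 15 with the first label series alone, 243 with log2(TPM + 1) over all genes, 215 with the replicate block, 97 at an adjusted p under 0.01, and 153 to 475 with 1 liver left out. The 391 lower became 668 with DESeq2, 19 with the first series, 254 with library totals, 101 with log2(TPM + 0.1) and with log2(TPM + 1), 51 with log2(TPM + 1) over all genes, 213 with the replicate block, 112 at an adjusted p under 0.01, and 149 to 493 with 1 liver left out. Members higher, 0 with edgeR, were 1 with DESeq2, library totals and all TPM fits, in each case *Psmd1*. Members lower, 1 with edgeR, were 3 with DESeq2, 2 with counts halved (*Psme2* and *Psmg2*), 0 with the first series, library totals, the TPM fits, the replicate block and an adjusted p under 0.01, and 0 to 1 with 1 liver left out (*Psmg2* without chow 1 or 4, *Psmb9* without chow 3, *Psme2* without chow 5, 0 otherwise). With a clock covariate (log2 CPM of *Arntl* minus that of *Dbp*) the 1 lower member was *Psme2*. *Dbp* ran from 27.4 to 129 CPM over the chow livers and from 35.1 to 96.2 CPM over the HSD livers. Of 11 clock genes edgeR called 0, and DESeq2 called *Clock* and *Nr1d1* as higher, beside 10.6% of the genes it tested in either direction. In the 4 lists of pathway genes edgeR called 0. There, 1 was higher in log2(TPM + 1) over all genes (*Adrm1*), and lower were 4 with DESeq2, 2 with a clock covariate (*Syvn1* and *Calr*), 1 with the replicate block (*Tap1*) and 0 to 1 with 1 liver left out.

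Replicate numbers shared by the diets did not pair the livers (correlations of deviations -0.0609 to 0.0661), and with the number as a block over 4 and 4 livers *Psmg2* was at -0.51 (adjusted p = 0.117 from edgeR). Over all settings *Psmg2* ranged from -0.61 to -0.32. Signs turned with the scale. Library totals gave 0.03 for *Psmb7*, 0.05 for *Psmd8* and 0.00 for *Psmg1*. With log2(TPM + 1), with and without the filter, values were 0.09 for *Psmb5*, 0.06 for *Psmb6*, 0.13 for *Psmb7* and *Psmd8*, 0.19 for *Psmb8*, 0.01 for *Psmb4*, 0.05 for *Psmb3* and *Psme1*, 0.10 for *Psmg1* and *Pomp* and 0.07 for *Ddi2*. With log2(TPM + 0.1) *Psmb8* was at 0.20 and *Ddi2* at 0.08, with the others as before. The ratio of *Psmb8* to *Psmb5* was 0.00 on CPM. *Psmd8* was at 0.00 with the block. With 1 liver left out, *Psmd8* ran from -0.06 to 0.01 (above 0 without chow 3 or HSD 1), *Psmb8* from -0.16 to 0.01 (without chow 1) and *Psmg1* from -0.11 to 0.03 (without chow 2). The cause was not tested.

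Of the tested members, *Psmg4*, *Psmd10* and *Psmg2* had the fewest counts. In the simulation, 27 of 97 changes of 0.5 on the log2 scale were recovered, in genes drawn from all those tested and not from the members. Smaller changes were not simulated. The first label series held 4 chow and 2 HSD livers and the second 1 chow and 2 HSD, too few for values within the second.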
